A study of Homo sapiens with 6 samples.

Results

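RNA levels of 10 genes of the YAP and TEAD transcription module were compared between BT-549 cells grown in adipocyte-conditioned medium (ACM) and in unconditioned medium (UCM). The genes encode the coactivators YAP1 and TAZ (gene symbol WWTR1), the DNA-binding partners TEAD1, TEAD2, TEAD3 and TEAD4, and the classical targets CCN1, CCN2, ANKRD1 and AMOTL2. They were chosen by name as Hippo effectors and classical targets and were matched by symbol to the 63140 genes listed. All 10 were found, and 9 of them were among the 14451 genes with enough counts for a test. BT-549 is a triple negative breast cancer line, and the cells sequenced carried no transgene.

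Cells of wild-type genotype were kept for 24 h in one of the media, with 3 replicates per condition and 1 polyA-enriched RNA library per replicate. ACM was a low-serum medium with insulin, oleate and albumin that had been conditioned on differentiating OP9 cells, a mouse stromal line that forms adipocytes. The growth medium that the study lists for BT-549 held far more serum. The labels give 50% ACM, whereas the methods of the study describe undiluted ACM for RNA-seq, so the dose is uncertain. The sources used here do not give the formula of UCM. Effects of secreted factors and of the base medium, including its serum, cannot be told apart. No label says whether replicates came from separately grown cell stocks, so p-values measure the spread between these wells only. Total expected counts were between 17135288 and 21053257 per library. Pearson's r of log2 CPM between libraries was between 0.974 and 0.989, and ACM replicate 1 correlated more closely with UCM replicate 1 (0.986) than with either other ACM library (both 0.985). The labels call the cells epithelial, but EPCAM, an epithelial adhesion protein, was at 0 TPM in 5 of 6 libraries and the 7 epithelial markers together held 1.56 to 2.69 TPM. All 5 mesenchymal markers passed the filter on low counts and together held 4344 to 5127 TPM, most of it VIM, the intermediate filament vimentin. Of 7 adipocyte markers, ADIPOQ, CIDEC and LEP were at 0 in every library, and the summed level was 16.4 to 19.0 TPM in ACM and 12.1 to 16.4 TPM in UCM, carried by PPARG and CFD. The 2 groups overlapped at 16.4 TPM, and neither PPARG (edgeR adjusted p = 0.365) nor CFD (0.196) passed the test between groups. Any part of this difference in the results below was not tested.

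YAP and TAZ have no DNA-binding domain of their own and act on genes by joining TEAD factors on DNA. The Hippo pathway holds them back: the kinases MST1 and MST2 (STK4 and STK3) activate LATS1 and LATS2, which phosphorylate YAP and TAZ so that they stay in the cytoplasm or are degraded. Stiff matrix, spread cell shape, low cell density and serum lipids are known to release them, and CCN1, CCN2, ANKRD1 and AMOTL2 are commonly read as reporters of their activity. Because this control acts on protein, RNA levels of YAP1 and WWTR1 do not report the amount or the place of the proteins, and neither was measured here. In bulk RNA, a different share of cells with high levels and a different level in every cell cannot be told apart.

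The TEAD domain recognises the letters GGAATG, so the 250 bases before the annotated start of the members were searched for GGAATG on both strands. RefSeq (GRCh38.p14) windows were found for 7 of the 10 members, 3 of them with windows at 2 starts, and none was found in the table for TEAD1, TEAD4 and CCN1. The motif stood in 4 of the 10 member windows, each of a different member, and in 11.9% of the 35116 windows of all genes. The members were chosen as effectors and known targets of this module, so these shares are a description and were not tested. The 3 targets with a window differ in copies of the motif and in RNA level. Their windows and those of the coactivators YAP1 and WWTR1 (the first of its 2 windows) are shown. They read 5′ to 3′ on the strand of the gene and end at the base before the start, with GGAATG, or its reverse complement CATTCC, in capitals:
CCN2, chr6:131951373-131951622, minus strand: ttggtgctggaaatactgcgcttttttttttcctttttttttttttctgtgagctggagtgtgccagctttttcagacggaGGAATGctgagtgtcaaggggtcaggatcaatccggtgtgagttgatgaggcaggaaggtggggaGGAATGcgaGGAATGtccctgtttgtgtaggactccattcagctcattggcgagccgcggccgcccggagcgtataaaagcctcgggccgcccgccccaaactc
ANKRD1, chr10:90921088-90921337, minus strand: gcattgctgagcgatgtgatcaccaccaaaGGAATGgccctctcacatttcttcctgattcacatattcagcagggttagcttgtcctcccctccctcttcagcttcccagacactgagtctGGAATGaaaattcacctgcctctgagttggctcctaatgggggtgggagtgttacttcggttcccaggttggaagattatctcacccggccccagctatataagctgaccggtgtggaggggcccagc
AMOTL2, chr3:134374448-134374697, minus strand: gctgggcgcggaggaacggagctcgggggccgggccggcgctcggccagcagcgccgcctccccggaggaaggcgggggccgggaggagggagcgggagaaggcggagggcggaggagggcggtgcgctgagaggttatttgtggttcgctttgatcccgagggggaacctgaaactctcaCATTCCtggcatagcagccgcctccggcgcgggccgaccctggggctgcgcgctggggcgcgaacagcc
YAP1, chr11:102110197-102110446, plus strand: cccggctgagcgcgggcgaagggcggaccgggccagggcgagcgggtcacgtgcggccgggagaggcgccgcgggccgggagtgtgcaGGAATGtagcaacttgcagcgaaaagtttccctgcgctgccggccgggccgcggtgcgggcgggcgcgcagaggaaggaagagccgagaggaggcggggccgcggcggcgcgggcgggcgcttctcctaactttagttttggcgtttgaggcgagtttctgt
WWTR1, chr3:149658026-149658275, minus strand: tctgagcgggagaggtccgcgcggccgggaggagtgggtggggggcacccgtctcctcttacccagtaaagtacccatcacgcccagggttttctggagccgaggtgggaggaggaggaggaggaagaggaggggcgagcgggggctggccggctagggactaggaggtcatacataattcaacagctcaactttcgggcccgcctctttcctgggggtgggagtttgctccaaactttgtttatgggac

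The CCN2 window held 3 copies, which began 169, 104 and 95 bases before the start. At least 3 copies were present in 0.0826% of all windows and at least 2 in 0.94%. In ANKRD1 the motif began 220 and 128 bases before the start. YAP1 had 1 copy on the gene strand and AMOTL2 1 copy on the opposite strand, in the first of its 2 windows. No copy was present in the windows of WWTR1, TEAD2 and TEAD3. A CArG box, the site of SRF, was in none of the 10 member windows and in 1.16% of all windows. A match is a run of letters and was not tested for binding.

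The 10 genes spanned a range from almost no RNA to some of the most abundant messages of these cells (plot of TPM by library). TPM is scaled for transcript length and library size and serves to compare genes. In UCM, CCN1 and CCN2 led at 714 ± 44.8 and 667 ± 67.3 TPM (SD, n = 3), ranks 191 and 200 among the tested genes, with overlapping ranges. CCN1 and CCN2 encode secreted matricellular proteins that bind integrins. AMOTL2, a junction protein that binds YAP and retains it outside the nucleus, followed at 122 ± 13.7 TPM. TEAD2 (78.2 ± 4.15 TPM) and YAP1 (70.8 ± 3.92 TPM) came next with overlapping ranges. WWTR1 (39.1 ± 7.82 TPM), TEAD4 (37.6 ± 2.61 TPM) and TEAD1 (36.2 ± 3.55 TPM) formed a run in which each overlapped the next. TEAD3 stood below them at 6.27 ± 0.62 TPM. In ACM the means of CCN1 and CCN2 changed places, as did those of TEAD2 and YAP1 and those of TEAD4 and TEAD1, each an order that the ranges in UCM left unresolved for those neighbours.

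**Figure D1:**
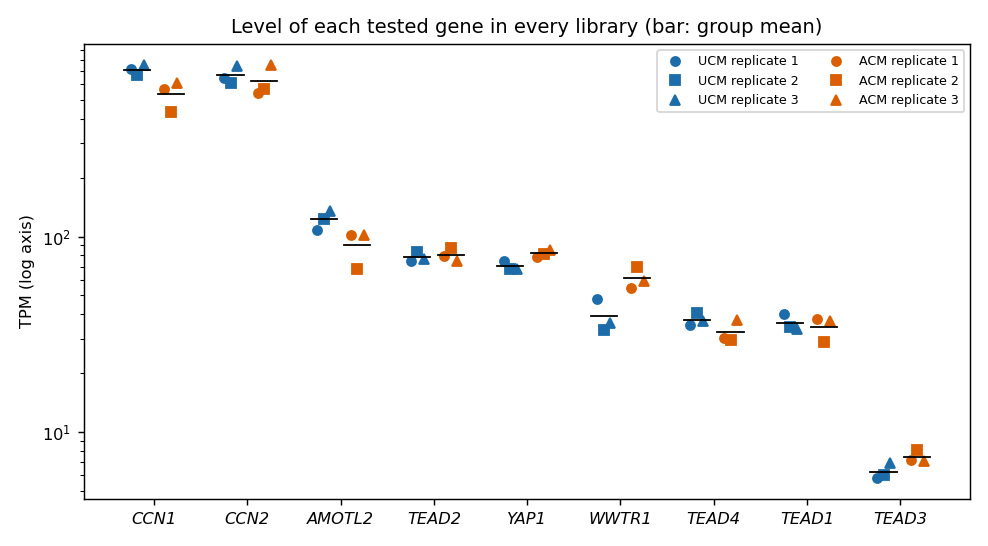
TPM on a log axis of the 9 tested genes, ordered by their UCM mean, with 1 point per library (blue UCM, orange ACM, marker shape by replicate number) and a bar at each group mean. CCN1 and CCN2 lie between 433 and 757 TPM, TEAD3 lies between 5.8 and 8.1 TPM, and only WWTR1 passed the test between groups.

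ANKRD1, a nuclear and sarcomeric ankyrin repeat protein that many cell types induce through YAP, was close to absent. Its counts were 0, 3 and 0 in the ACM libraries, against 2, 0 and 1 in UCM. Both groups thus held 3 counts in all, too few to pass the filter on low counts, and no fold change was computed. The same libraries held 10805 to 20063 counts of CCN1 each.

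For the comparison of ACM with UCM, expected counts were fitted with edgeR's quasi-likelihood test over all 14451 genes, and values are given as CPM, the count as a rate per library scaled with TMM factors. With the adjusted p-value held to 0.05, 1 member (WWTR1) was higher in ACM and 0 were lower, whereas 3.35% of all tested genes were higher and 2.21% were lower. By the unadjusted p-value, held to the same 0.05, 2 members were higher (background 11.9%) and 2 were lower (11.5%). DESeq2 called the same member higher and 2 lower, CCN1 and AMOTL2, beside 725 higher and 422 lower of 25484 genes. Limma-trend on log2(TPM + 1) called 0 members in either direction, beside 230 higher and 132 lower of 14451 genes. The log2 fold changes (FC) of the 9 genes had a median of -0.02, beside -0.01 over all tested genes. The ACM and UCM libraries did not overlap in 3 members that lay above (13.9% of all tested genes did) and 2 that lay below (15.1%). These were YAP1, WWTR1 and TEAD3 above and CCN1 and AMOTL2 below (plot of CPM relative to the UCM mean).

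**Figure D2:**
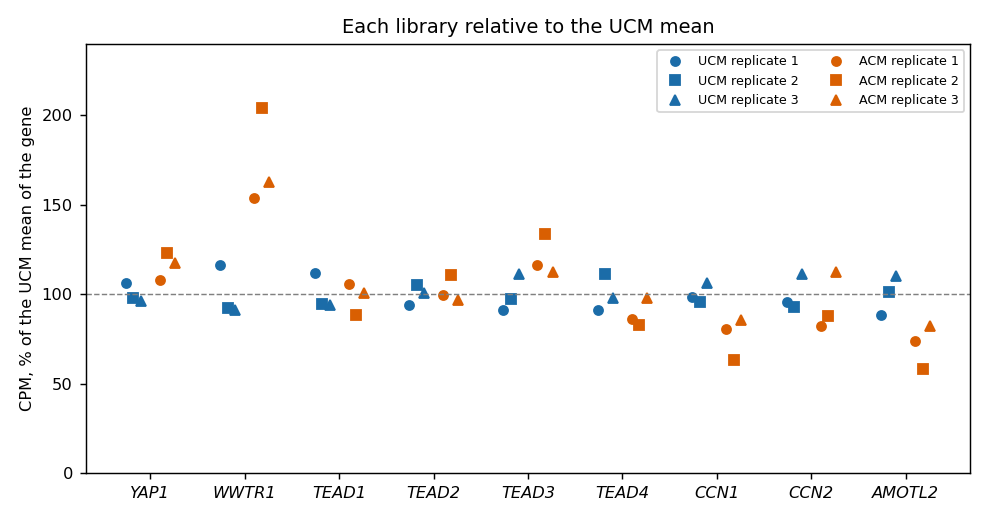
CPM of each library as a percentage of the gene's UCM mean for the 9 tested genes (dashed line at 100%), blue for UCM and orange for ACM, marker shape by replicate number. WWTR1 lies above all UCM libraries in ACM and is highest in ACM replicate 2, and CCN1 and AMOTL2 lie below them and are lowest in that same library.

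Of the coactivators, WWTR1 rose. Its CPM was 140, 185 and 148 in ACM and 106, 83.7 and 82.9 in UCM. Every ACM library was above every UCM library, ACM replicate 2 was the highest and UCM replicate 1 stood above the other UCM libraries. The fitted increase was 1.73-fold (log2 FC 0.79, SE 0.13, edgeR adjusted p = 0.0147). It also passed the thresholds of the study, a p-value of 0.05 together with a log2 FC of 0.58 in size. They were applied here to edgeR's unadjusted p-value. The study used DESeq2 and its text does not say whether p was adjusted. Upward, 4.12% of tested genes met these thresholds, and downward 1.71%, among them 0 members. Without UCM replicate 2 the log2 FC was 0.74 with an adjusted p of 0.0694, and without UCM replicate 3 it was 0.74 with an adjusted p of 0.0515. The effective length that RSEM gave WWTR1, which follows the mix of its transcripts, was also longer in ACM (3603 to 3689 bases) than in UCM (3193 to 3552 bases). The difference was therefore smaller in TPM, where 61.1 ± 7.65 in ACM stood against 39.1 ± 7.82 in UCM (SD, n = 3). Fitted with these lengths as offsets, the log2 FC was 0.67 (adjusted p = 0.0491), and limma-trend on log2(TPM + 1) gave 0.64 (adjusted p = 0.0561). WWTR1 lies at chr3:149517235-149736714 on the minus strand (GRCh38, GENCODE 44).

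YAP1, at chr11:102110447-102233424, showed a smaller difference that missed the adjusted threshold. Its CPM was 193, 220 and 209 in ACM against 189, 175 and 171 in UCM. The groups did not overlap, but ACM replicate 1 and UCM replicate 1 were almost level. The log2 FC was 0.22 (SE 0.073, edgeR adjusted p = 0.111), and YAP1 passed only without UCM replicate 1 among the 14 alternatives (0.27, adjusted p = 0.0472). Over the other omissions of 1 library the adjusted p ran from 0.0784 to 0.332, with the smallest log2 FC, 0.17, without ACM replicate 2. Summed over both coactivators, TPM was 133, 151 and 145 in ACM, above all of the UCM values of 123, 102 and 105. WWTR1 made up 42.6% ± 2.90 of that sum in ACM and 35.4% ± 3.21 in UCM (SD, n = 3). The log2 ratio of YAP1 to WWTR1 was 0.53, 0.23 and 0.53 in ACM, against 0.65, 1.04 and 0.92 in UCM. It was lower in all 3 ACM libraries by a mean of -0.44, with a two-sided exact permutation p of 0.1, the smallest that 3 against 3 allows.

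The DNA-binding partners showed no called difference. TEAD1, which starts 139.1 kb past the end of PARVA on chromosome 11, had a CPM of 195, 164 and 186 in ACM against 206, 175 and 173 in UCM. The groups overlapped, with a log2 FC of -0.02 (SE 0.09, adjusted p = 0.909). TEAD2 had 94.5, 105 and 92.2 CPM in ACM and 89.6, 100 and 95.8 CPM in UCM, again overlapping (log2 FC 0.03, SE 0.077, adjusted p = 0.845). Its gene overlaps CD37 on the opposite strand, which had 2.66 CPM in ACM and 2.63 CPM in UCM. TEAD4 had 27.2, 26.0 and 30.8 CPM in ACM against 28.6, 34.9 and 30.8 CPM in UCM, and the groups overlapped (log2 FC -0.17, SE 0.11, adjusted p = 0.376, and -0.088 without UCM replicate 2). The least abundant factor, TEAD3, had 13.8, 15.8 and 13.3 CPM in ACM and 10.8, 11.6 and 13.2 CPM in UCM. Its ACM libraries were all above its UCM libraries, by a narrow margin between ACM replicate 3 and UCM replicate 3 (log2 FC 0.27, SE 0.13, adjusted p = 0.242).

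Since all TEAD proteins bind the same motif, their relative levels were also compared. Summed TEAD TPM was 154.8 ± 1.32 in ACM and 158.2 ± 5.09 in UCM (SD, n = 3, exact permutation p = 0.4). TEAD2 supplied 52.0% ± 4.37 of the sum in ACM and 49.4% ± 1.30 in UCM (exact permutation p = 0.5). That difference of 2.58 percentage points was 0.26 without ACM replicate 2 and 4.59 without ACM replicate 3. TEAD1 supplied 22.3% ± 3.06 and 22.9% ± 2.49 (p = 0.9, exact permutation test), and TEAD4 20.9% ± 2.61 and 23.7% ± 1.07 (p = 0.2, exact permutation test), a TEAD4 difference of -2.82 points that was -4.33 without ACM replicate 3. TEAD3 supplied 4.83% ± 0.39 in ACM and 3.97% ± 0.48 in UCM, with all ACM libraries above all UCM libraries and an exact permutation p of 0.1, which is the smallest possible. These are 4 unadjusted two-sided tests of shares that sum to a whole, and none could reach the 0.05 level with 3 libraries per group.

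**Figure D3:**
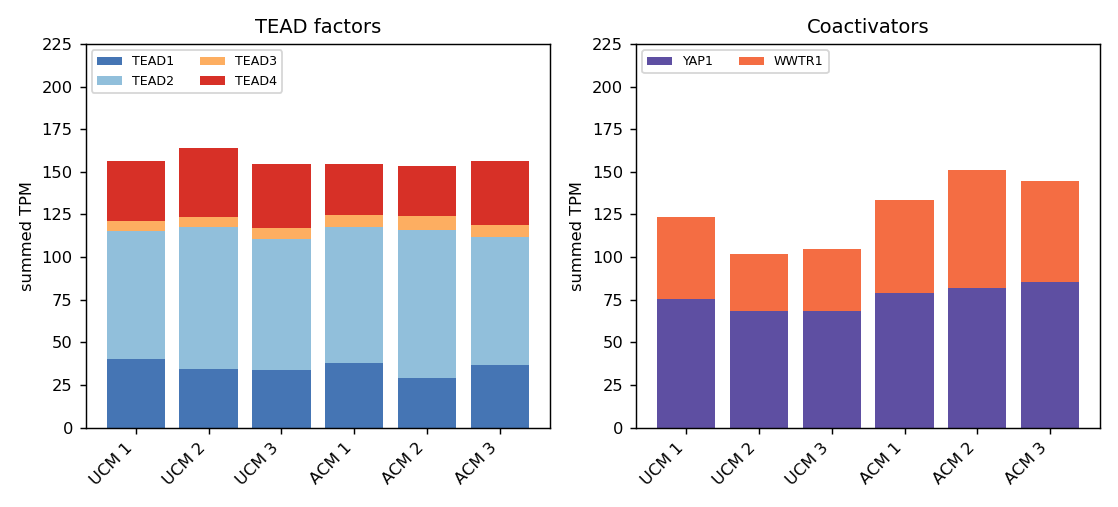
Stacked TPM per library of the 4 TEAD factors (left) and of YAP1 and WWTR1 (right), 1 bar per library. The TEAD sum lies between 153 and 164 TPM in all 6 libraries, and the coactivator sum lies between 102 and 123 TPM in UCM and between 133 and 151 TPM in ACM.

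Among the classical targets, CCN1 and AMOTL2 lay lower in ACM without passing the adjusted threshold, and CCN2 overlapped. CCN1, at chr1:85580761-85584589, had 780, 609 and 828 CPM in ACM and 951, 921 and 1024.5 CPM in UCM. All ACM libraries were below all UCM libraries, and ACM replicate 2 was well below the others. The log2 FC was -0.39 (SE 0.11, edgeR adjusted p = 0.0712), and without ACM replicate 2 it was -0.26 (adjusted p = 0.152).

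AMOTL2, at chr3:134355347-134375479, had 193, 153 and 215 CPM in ACM against 233, 265 and 290 CPM in UCM. The groups did not overlap, with ACM replicate 2 again the lowest. The log2 FC was -0.49 (SE 0.13, edgeR adjusted p = 0.0703), and without ACM replicate 3 it was -0.60 with an adjusted p of 0.0449. Over the other omissions of 1 library AMOTL2 did not pass, with an adjusted p from 0.0573 to 0.236 (log2 FC -0.40 without UCM replicate 3), nor with effective-length offsets (log2 FC -0.41, adjusted p = 0.183). DESeq2 put both genes past the threshold, CCN1 at an adjusted p of 0.0103 and AMOTL2 at 0.00301.

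CCN2, at chr6:131948176-131951372, had 788, 842 and 1078 CPM in ACM against 920, 891 and 1067 CPM in UCM. The highest value of all was in an ACM library and the groups overlapped (log2 FC -0.09, SE 0.12, adjusted p = 0.727). CCN2 was the target with the most copies of GGAATG in its window, and a relation of motif copies to log2 FC was not tested. ACM replicate 3 was the highest library for CCN2, whereas UCM replicate 3 was the highest for CCN1.

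A wider list of 18 other YAP and TAZ targets gave 16 tested genes. Of these, 1 was higher at the adjusted threshold (background 3.35%) and 0 were lower (2.21%). By the unadjusted p-value 1 was higher (background 11.9%) and 2 were lower (11.5%). DESeq2 called 1 lower, IGFBP3, beside 422 lower of 25484 genes. Log2 FCs were positive in 7 and negative in 9, with a median of -0.01, beside -0.01 over all genes. That median was -0.086 without UCM replicate 2 and 0.056, of the opposite sign, without UCM replicate 1. NT5E, the ectoenzyme CD73 that makes adenosine, rose. It had 194, 319 and 206 CPM in ACM and 133, 93.2 and 97.0 CPM in UCM (log2 FC 1.15, SE 0.24, adjusted p = 0.0479). As with WWTR1, ACM replicate 2 was the highest library and UCM replicate 1 the highest of its group. NT5E missed the threshold without ACM replicate 3 (adjusted p = 0.0519) and without UCM replicate 1 (0.0584), 2 (0.186) or 3 (0.189). It also missed with the filter of at least 1 count in total (0.154) and with replicate number as a block (0.183).

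IGFBP3, an IGF-binding protein, had a log2 FC of -0.56 (adjusted p = 0.134), NUAK2, an AMPK-related kinase, one of -0.38 (adjusted p = 0.229) and TGFB2, a TGF-β ligand, one of -0.30 (adjusted p = 0.121), none of which passed. IGFBP3 and TGFB2 lay lower in every ACM library than in any UCM library, and NUAK2 overlapped and was at -0.20 without ACM replicate 2. AXL, a receptor tyrosine kinase, and MYOF, a membrane repair protein, had log2 FCs of -0.09 and -0.01. F3 and FOXF2 had too few counts for a test. Over the 3 libraries of each group, F3 had 9 in ACM against 11 in UCM, and FOXF2 had 12 against 16.

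Of 35 other Hippo pathway genes, a list of kinases, scaffolds, upstream regulators and TEAD cofactors, 34 were tested. At the adjusted threshold 4 were higher (background 3.35%) and 1 was lower (2.21%), and log2 FCs were positive in 21 and negative in 13, with a median of 0.08. The median stayed positive without each library in turn, from 0.034 without UCM replicate 3 to 0.13 without UCM replicate 1. WWC1, known as KIBRA, a scaffold that promotes LATS activation, rose from 59.8, 67.3 and 64.8 CPM in UCM to 82.7, 86.7 and 98.8 CPM in ACM (log2 FC 0.48, SE 0.09, adjusted p = 0.0126). Its groups did not overlap, and it passed under all 14 alternatives. WWC3, of the same family, rose by a similar log2 FC of 0.49 (SE 0.09, adjusted p = 0.0170), with 62.9 to 78.0 CPM in ACM and 46.7 to 52.5 CPM in UCM. FRMD6, a FERM protein upstream of the kinases, and CSNK1E, a casein kinase, each rose by 0.25 on the log2 scale (adjusted p = 0.0461 and 0.0457).

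AJUBA, a LIM protein that restrains LATS, fell. It had 145, 101 and 145 CPM in ACM and 184, 197 and 205 CPM in UCM, which did not overlap (log2 FC -0.58, SE 0.14, adjusted p = 0.0473). ACM replicate 2 was again the lowest. FRMD6, CSNK1E and AJUBA each lost the call without 5 of the 6 libraries in turn: FRMD6 and CSNK1E without any but UCM replicate 1 (highest adjusted p = 0.186 and 0.187), and AJUBA without any but ACM replicate 2 (highest adjusted p = 0.182). WWC3 lost it without ACM replicate 2 (0.0619), UCM replicate 2 (0.0903) or UCM replicate 3 (0.0661). With effective-length offsets WWC3 (adjusted p = 0.0788), CSNK1E (0.0903) and FRMD6 (0.105) were not called. Nor were they called by limma-trend on log2(TPM + 1), where AJUBA missed the threshold too (adjusted p = 0.0551).

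The core kinase cassette showed no call. LATS1 and LATS2 had log2 FCs of 0.09 (SE 0.09) and -0.01 (SE 0.08), STK3 and STK4 had -0.17 (SE 0.09) and 0.08 (SE 0.07), and the adaptor SAV1 had 0.13 (SE 0.11). NF2, the upstream tumour suppressor merlin, had -0.20 (SE 0.11, adjusted p = 0.336). The protocadherins DCHS1 and FAT4, a ligand and receptor pair, had log2 FCs of 0.63 (adjusted p = 0.223, at 1.28 to 3.42 CPM) and -0.48 (adjusted p = 0.294). The FAT4 value was -0.24 without UCM replicate 1 and -0.30 without ACM replicate 2. VGLL4, which competes with YAP for TEAD, had 0.35 (adjusted p = 0.312) with overlapping groups, which was 0.12 without ACM replicate 2 and 0.51 without ACM replicate 3, and VGLL1 was at 0 counts in every library.

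SRF with its MRTF coactivators drives cytoskeletal genes and shares several targets with YAP, so 19 of its targets and regulators were counted as well. Of 17 tested, 1 was higher and 1 was lower at the adjusted threshold (background 3.35% and 2.21%), and by the unadjusted p-value 1 was higher and 5 lower (11.9% and 11.5%). Log2 FCs were negative in 13 and positive in 4, with a median of -0.13 beside -0.01 over all genes, which was -0.02 without ACM replicate 2. CNN2, the actin-binding calponin 2, fell from 294 to 301 CPM in UCM to 208 to 238 CPM in ACM (log2 FC -0.40, SE 0.07, adjusted p = 0.0123), and lost the call without UCM replicate 2 (adjusted p = 0.067) or UCM replicate 3 (0.073). FHL2, a LIM-only cofactor, rose from 56.9 to 66.2 CPM to 72.8 to 89.6 CPM (log2 FC 0.39, SE 0.09, adjusted p = 0.0378), a call lost without any 1 library other than UCM replicate 1 (highest adjusted p = 0.171). The FHL2 call was also lost with effective-length offsets (adjusted p = 0.0813) and with limma-trend on log2(TPM + 1) (adjusted p = 0.119). SRF itself had a log2 FC of -0.28 (adjusted p = 0.0549), and the tropomyosins TPM2 and TPM1 had -0.32 (adjusted p = 0.0652) and -0.22 (adjusted p = 0.192), all with ACM libraries below UCM libraries. TPM1 was at -0.12 without ACM replicate 2. FILIP1L was listed at 0 in every library and ACTG2 was too low to test.

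**Figure D4:**
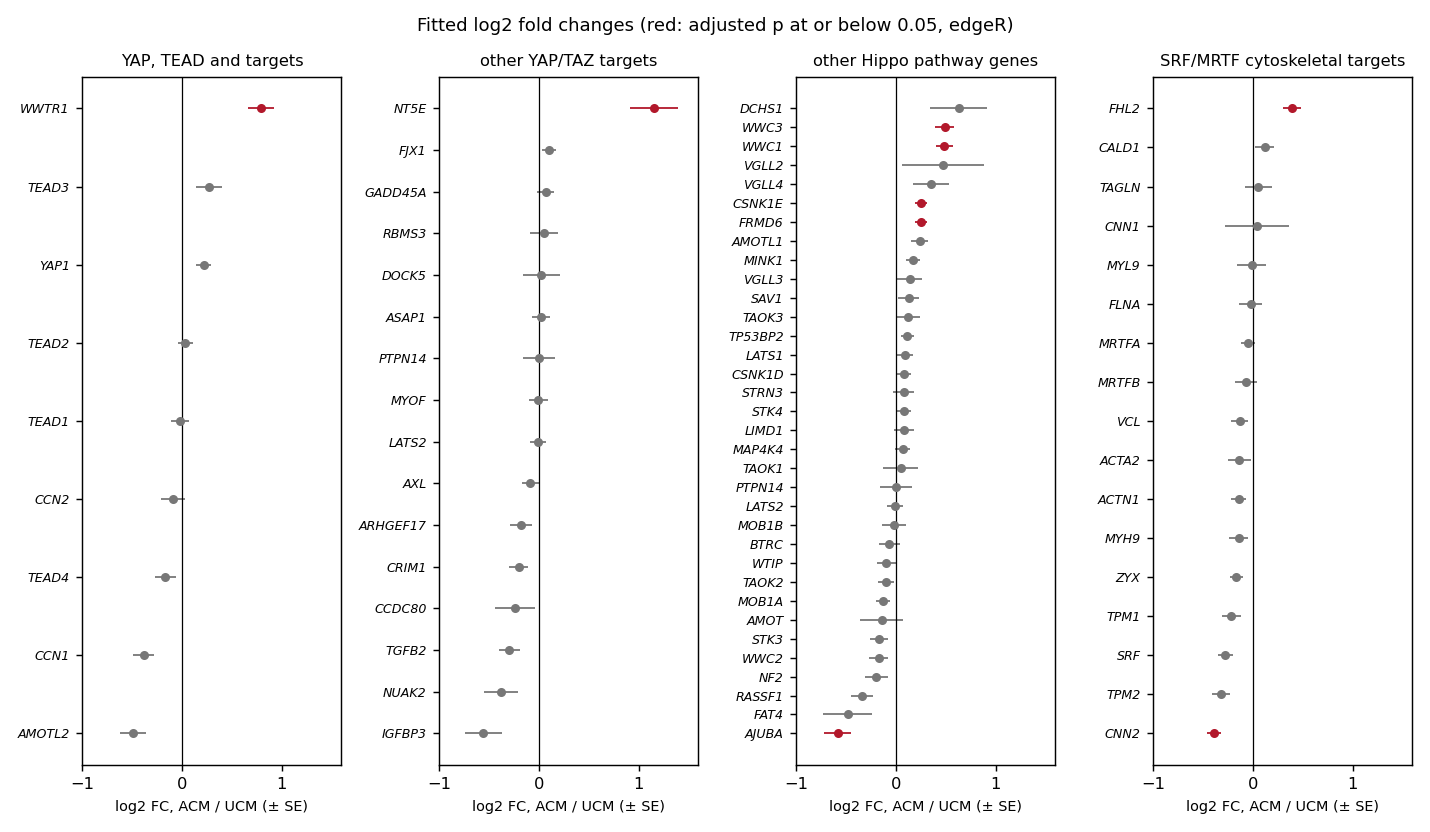
Fitted log2 FC of ACM over UCM with its SE for the tested genes of each list, sorted by value, with genes that passed the adjusted threshold of 0.05 in red. WWTR1 is the only red point of its panel, NT5E of the next, WWC1, WWC3, CSNK1E, FRMD6 and AJUBA stand out among Hippo genes, and FHL2 and CNN2 among SRF targets.

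The genes that tracked CCN1 and YAP1 most closely were looked up among the 9672 genes that averaged 10 CPM or more, by Pearson's r of log2 CPM over the 6 libraries, which share their media and so their group difference. Closest to CCN1 were USP10 (0.998), CCDC137 (0.994) and WDR77 (0.994), and their own log2 FCs were -0.15, -0.27 and -0.35. RAI14 (0.996), SLC20A1 (0.993) and PLEKHA2 (0.993) were closest to YAP1, with log2 FCs of 0.36, 0.55 and 0.39. No other member was among these 6 genes. With 6 libraries and so many genes, high values of r are a description and no more.

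How far the members' differences held across processing was read from 14 alternatives (plot of log2 FC by alternative). WWTR1 was higher in ACM under all 14, with log2 FCs from 0.64 to 0.93, and passed the adjusted threshold under 10. AMOTL2 had a negative log2 FC under all 14 and passed under 4, and CCN1 had one under all 14 and passed under 3. YAP1 had a positive log2 FC under all 14 and passed under 1.

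**Figure D5:**
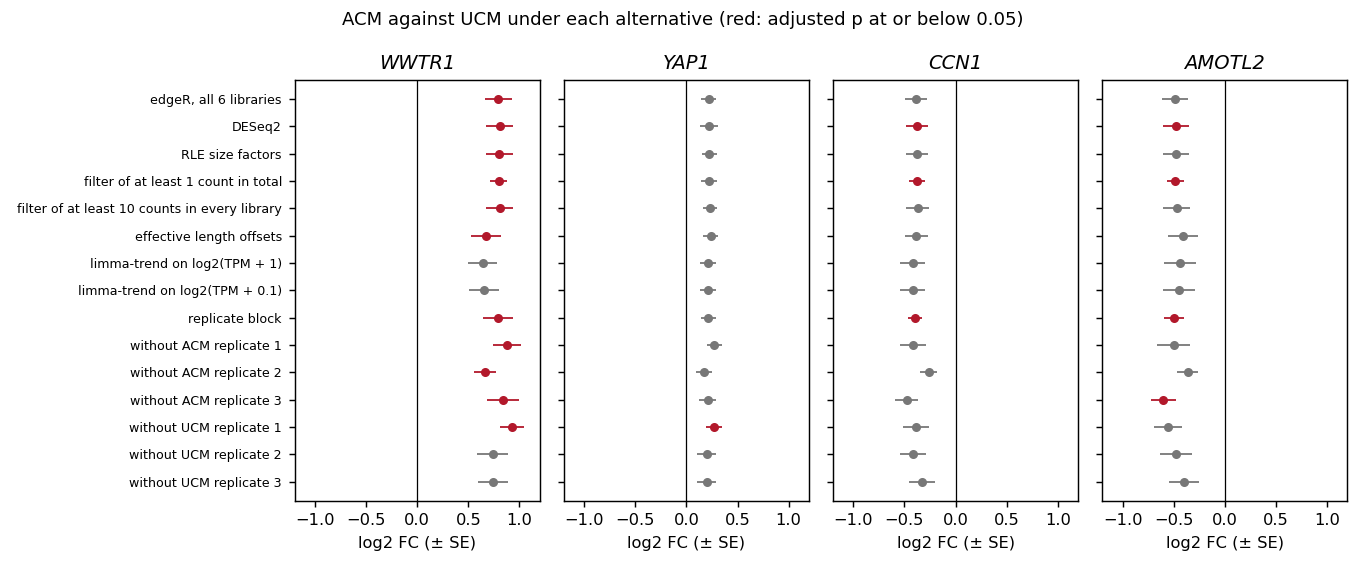
Log2 FC of ACM over UCM with its SE for WWTR1, YAP1, CCN1 and AMOTL2 in the edgeR comparison of all 6 libraries and under the 14 alternatives, red where the adjusted threshold of 0.05 was passed. Each gene stays on one side of 0 throughout, and the calls of CCN1 and AMOTL2 appear with DESeq2, the lower count filter and the replicate block, with AMOTL2 also called without ACM replicate 3.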

How the data were processed

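PolyA-enriched RNA from 6 BT-549 cultures was sequenced in pairs. Per the labels and the study's methods, the authors trimmed reads with Trim Galore, aligned them with STAR to GRCh38 and quantified them with RSEM (versions, annotation and strandedness not given in the sources used here). The deposited expected counts are estimates that share ambiguous reads between genes, and the deposited TPM is scaled by each library's effective length. A table of the authors' DESeq2 fold changes, errors and p-values was not used. Symbols and positions came from GENCODE 44 (61547 of 63140 identifiers matched).

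Expected counts, rounded, were compared with edgeR 4.0.16 (R 4.3.3; filterByExpr, TMM, robust quasi-likelihood, medium as the only term, Benjamini-Hochberg over all 14451 genes). The 3 libraries per group had a biological coefficient of variation of 0.115. On simulated data for ACM against UCM (14218 genes), 73 of 98 2-fold and 49 of 96 1.5-fold changes were recovered, with 12 false calls. Exact permutation tests used SciPy 1.17.1.

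Alternatives were DESeq2 1.42.0, RLE factors, 2 count filters, effective-length offsets, limma 3.58.1 on log2(TPM + 1 or 0.1), the replicate block and each library left out. The members and lists were chosen with earlier results of these data known. Named genes were all members, up to 6 passing genes and the 3 largest other changes per list, and the 3 closest genes to CCN1 and YAP1. LATS1, LATS2, STK3, STK4, SAV1, NF2, AXL, MYOF and the untested genes were named after their values were seen. LATS2 and PTPN14 are on 2 lists. Reads of overlapping antisense genes cannot be told apart without strand. None of those of a member exceeded 2.66 CPM, but that value rests on the same assignment of reads and cannot bound misplaced ones.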

Additional observations from a re-analysis of the deposited data

How the results depend on the processing

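Counts of calls moved most, and the cause was not tested. Members called lower numbered 2 (CCN1 and AMOTL2) with DESeq2 and with the filter of at least 1 count in total, and members called higher numbered 0 with limma-trend on TPM at either pseudocount. Other YAP and TAZ targets called lower numbered 1 with DESeq2 and 2 with the filter of at least 1 count, which called 0 higher. Hippo genes called lower numbered 2 with that filter, and 0 with the filter of at least 10 counts in every library and with limma-trend at either pseudocount. Hippo genes called higher numbered 1 and SRF targets called higher 0 with effective-length offsets and with limma-trend. SRF targets called lower numbered 3 with DESeq2 and with the filter of at least 1 count. Over all genes, 484 of 14451 were called higher and 320 lower. The filter of at least 1 count called 1045 and 679 of 25486, and DESeq2 called 725 and 422 of 25484. With the filter of at least 10 counts, 554 and 313 of 13376 were called, and with length offsets 272 and 134 of 14450. Limma-trend called 230 and 132 of 14451 on log2(TPM + 1), and 234 and 138 on log2(TPM + 0.1).

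Leaving out 1 library at a time gave 0 to 2 members called higher and 0 to 1 lower, 0 to 1 other targets higher and 0 to 1 lower, 1 to 6 Hippo genes higher and 0 to 1 lower, and 0 to 1 SRF targets higher and 0 to 2 lower, with a median log2 FC of the SRF list from -0.18 to -0.023. Over all genes it gave 125 higher and 70 lower of 14779 without UCM replicate 2, and 156 and 62 of 14775 without UCM replicate 3. The numbers were 197 and 87 of 14727 without ACM replicate 2, and 738 and 572 of 14684 without UCM replicate 1. Log2 FCs near 0 changed sign. Over the 6 omissions, CCN2 ranged from -0.24 to 0.0099, TEAD1 from -0.071 to 0.072, TEAD2 from -0.028 to 0.071, and the difference of the TEAD1 share from -1.72 to 1.13 percentage points. CCN2 was at 0.0099 without ACM replicate 1 and 0.0067 without UCM replicate 3, TEAD1 at 0.046 without ACM replicate 2 and 0.072 without UCM replicate 1, and TEAD2 at -0.028 and -0.00094 without the same 2 libraries. The TEAD1 share differed by 1.13 percentage points without ACM replicate 2 and by 0.81 without UCM replicate 1. The YAP1 to WWTR1 log2 ratio kept its direction in all alternatives.

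Same-numbered libraries correlated in their deviations from the group means at 0.318, 0.035 and 0.177. ACM replicates 1 and 2 correlated best with the UCM library of the same number, but ACM replicate 3 with UCM replicate 2 (0.196). These values do not settle whether the numbers mark pairs, and the main fit did not use them. With the replicate block, 909 of 14451 genes were called higher and 703 lower. The block gave 2 members called lower, CCN1 (edgeR adjusted p = 0.00473) and AMOTL2 (0.0168). It gave 0 other targets higher and 1 lower, 3 Hippo genes lower and 3 SRF targets lower. Apart from ANKRD1, the members had at least 215 counts in every library.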
